A study of Mus musculus with 6 samples.

Results

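Expression of 8 genes with known or suspected variation between mouse substrains or inbred strains was described in retinae of newborn mice lacking Meg2, the protein tyrosine phosphatase encoded by Ptpn9, and of wild-type controls. The genes were Nnt, Alad, Crb1, Slc15a2, Cyfip2, Wdfy1, Ide and Glo1, and the members were all array features annotated with exactly 1 of these symbols. This gave 9 transcript clusters (sets of probes summarised to 1 value) out of 23410 clusters with a gene name. Glo1 had 2 clusters and each other gene 1, no cluster of several genes named any of the 8, and no filter on low signal was applied, so all 8 genes were measured. The 8 genes were selected on known or suspected strain variation and chosen with earlier results of this same comparison known, the knockout minus wild-type differences in log2 signal, among them those of Slc15a2 and Nnt. The differences between genotypes are therefore given as a description of these arrays with their errors and without a test.

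The study compared 3 Meg2 knockout samples with 3 Meg2 wild-type samples on whole-transcript arrays. All 6 came from retina at postnatal day 0, and the labels give the strain background of both genotypes as C57BL/6NTac, a C57BL/6N colony. Each sample is described as the pooled retinae of 1 animal, and the samples of a genotype are labelled biological replicates 1 to 3. The labels do not say how the knockout allele was made, whether it was removed in all cells, how many backcrosses led to the stated background or whether the animals were littermates. Genotypes of the single animals at the 8 genes were not analysed here.

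Inbred mouse colonies that share a name drift apart by new mutations and by changes in the copy number of short chromosome segments. The C57BL/6J and C57BL/6N lines are the best-known case. C57BL/6J carries a multi-exon deletion in Nnt that removes the functional enzyme, while C57BL/6N carries the rd8 frameshift in Crb1, which is known to cause focal retinal dysplasia, and a missense change in Cyfip2. Other genes vary in copy number: Alad and Glo1 are duplicated in several inbred strains, and a segment with Ide is known to vary in copy number within C57BL/6J colonies.

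Values were log2 signals, in which a step of 1 is a doubling. Array medians were 7.84 to 7.91, and precision is limited by having 3 arrays a genotype. In limma, which tests every cluster with a shared estimate of the spread, 0 of 23410 clusters passed an adjusted p of 0.05 (0% of those tested), 803 had an unadjusted p under 0.05 (3.43%; 1.69% higher and 1.74% lower in the knockout), and the lowest adjusted p was 0.0781. Ptpn9 read 9.31, 9.58 and 9.28 on the knockout arrays, against 10.05, 9.93 and 9.94 on the wild-type arrays, lower on every array labelled knockout. Which part of the gene was deleted is unknown here, so its cluster does not test the deletion itself. Retina marker genes were bright, with a mean of 13 measured markers between 11.41 and 11.51 on the knockout arrays and between 11.39 and 11.48 on the wild-type arrays. The replicate 2 arrays went against the label of 1 animal per array. Xist, the RNA of the inactive X chromosome, read 12.54 and the Y-linked gene Eif2s3y 7.66 on knockout replicate 2, and 12.55 and 7.76 on wild-type replicate 2. Replicate 1 of both genotypes carried high Xist with Eif2s3y at 5.08 in the knockout, against 5.49 in wild type, and replicate 3 of both carried low Xist with Eif2s3y at 10.03 in the knockout, against 9.39 in wild type. Without the replicate 2 arrays of both genotypes the differences were -0.39 for Nnt, -0.20 for Alad, 0.056 for Crb1, 2.16 for Slc15a2, 0.042 for Cyfip2, 0.090 for Wdfy1, -0.12 for Ide, and 0.067 and 0.070 for the Glo1 clusters.

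**Figure D1:**
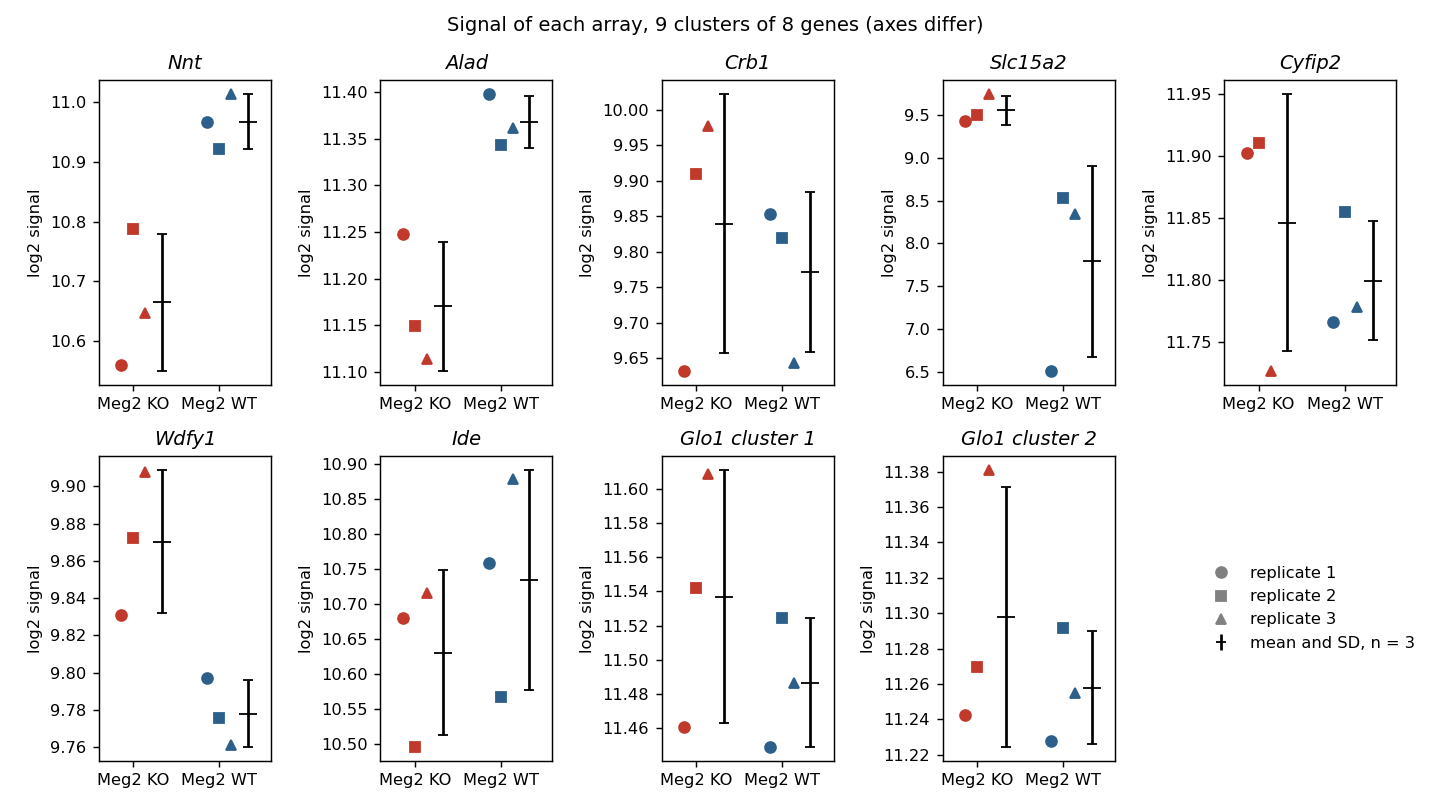
Log2 signal (vertical axes, which differ between panels) of each array for the 9 clusters of the 8 genes, with Meg2 KO in red on the left, Meg2 WT in blue on the right, marker shapes for replicate numbers, and black bars for mean and SD. Slc15a2 spans 3.24 log2 units and the other clusters at most 0.45, and the genotypes do not overlap in Nnt, Alad, Slc15a2 and Wdfy1.

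Slc15a2 encodes PEPT2, a proton-coupled transporter that takes up di- and tripeptides and is known from the kidney, the choroid plexus and glial cells. Its signal was 9.42, 9.50 and 9.75 on the 3 knockout arrays, against 6.51, 8.53 and 8.34 on the 3 wild-type arrays. Every knockout array was above every wild-type array, and wild-type replicate 1 stood apart below the other wild-type arrays. The knockout mean was 9.56 ± 0.17 and the wild-type mean 7.79 ± 1.11 (SD, n = 3 each). The knockout signal was thus 3.40-fold that of wild type, a difference of 1.76 on the log2 scale with a moderated standard error (SE) of 0.44. No other cluster of the 23410 had a larger absolute difference between the genotypes.

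The size of the Slc15a2 difference depended on 1 array. Without wild-type replicate 1 the difference was 1.12 (SE 0.11), or 2.18-fold, and without the replicate 2 arrays of both genotypes it was 2.16. Within the replicate numbers, knockout minus wild type was 2.91, 0.97 and 1.41 for numbers 1, 2 and 3. The lowest knockout array stood 0.90 above the highest wild-type array, which is 1.86-fold. It was 7.54-fold above wild-type replicate 1. The distance between the genotypes thus ranged widely with the wild-type array it was measured from. The wild-type replicates 2 and 3 were themselves 4.05-fold and 3.55-fold above wild-type replicate 1.

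Slc15a2 also varied widely within the wild type. Its wild-type SD of 1.11 ranked 6 of 23410 clusters, where the median wild-type SD was 0.071. In the knockout its SD was 0.17, which was above that of 86.4% of clusters. Over all 6 arrays its range of 3.24 log2 units, or 9.43-fold, ranked 4, after Xist and the Y-linked genes Eif2s3y and Uty, whose ranges were 6.47, 4.95 and 4.83. The low Slc15a2 array, wild-type replicate 1, carried high Xist, and so did knockout replicate 1, which read 9.42 for Slc15a2. A relation of Slc15a2 to sex was not tested.

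The sequence around the start of Slc15a2 is shown because this gene had the widest spread among the 8, beside that of Alad, which had the tightest wild-type arrays among the genes with lower knockout signal. Both are RefSeq promoter windows of GRCm38.p6, from 250 bases before to 50 bases after an annotated start, and 6 of the 8 genes had an entry, the others being Nnt and Wdfy1. They are letters of the C57BL/6J genome and were not read from these animals. Capitals mark every match on either strand to the core of the TATA box (TATAAA), the core of the GC box (GGGCGG), the CCAAT box motif (CCAAT) or a common E-box (CACGTG). None of these overlaps another in the windows shown.
Slc15a2, minus strand, chr16:36784913-36785212: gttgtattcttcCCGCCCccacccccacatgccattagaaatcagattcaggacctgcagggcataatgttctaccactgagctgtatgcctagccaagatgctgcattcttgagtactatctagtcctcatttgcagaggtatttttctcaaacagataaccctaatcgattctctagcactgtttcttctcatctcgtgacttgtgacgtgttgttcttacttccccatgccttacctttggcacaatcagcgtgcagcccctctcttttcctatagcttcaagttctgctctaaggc
Alad, minus strand, chr4:62520014-62520313: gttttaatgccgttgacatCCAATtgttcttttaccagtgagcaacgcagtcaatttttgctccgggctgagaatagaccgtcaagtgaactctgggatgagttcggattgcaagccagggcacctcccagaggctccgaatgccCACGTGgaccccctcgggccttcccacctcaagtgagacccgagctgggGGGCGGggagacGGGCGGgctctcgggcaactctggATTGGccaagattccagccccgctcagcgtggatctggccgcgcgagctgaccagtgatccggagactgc

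The Slc15a2 window held 1 GGGCGG match on the reverse strand and no match to the other motifs, and 5 CG dinucleotides. The Alad window held 2 GGGCGG matches, 2 CCAAT matches and 1 CACGTG match, and 19 CG dinucleotides, where the median over 32851 windows was 7. Over those windows 35.7% held GGGCGG, 37.4% CCAAT, 13.6% TATAAA and 7.15% CACGTG at least once. A second annotated Alad window, which overlaps the one shown, held 33 CG dinucleotides, 6 GGGCGG matches, 1 CCAAT match and 1 CACGTG match, so these counts depend on the annotated start. The Slc15a2 gene reaches to position 36785158 in the gene table, so most of its window lies within the gene. The Alad gene reaches to position 62520063, so most of the Alad window shown lies outside it. The counts of these windows thus come from unlike positions. These are matches of letters and not measured binding.

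Nnt encodes nicotinamide nucleotide transhydrogenase, the inner mitochondrial membrane enzyme that uses the proton gradient to make NADPH. Nnt read 10.56, 10.79 and 10.65 on the knockout arrays and 10.97, 10.92 and 11.01 on the wild-type arrays. All knockout arrays lay below all wild-type arrays. The knockout mean was 10.67 ± 0.12 and the wild-type mean 10.97 ± 0.046 (SD, n = 3 each), so the knockout stood at 0.811 of wild type, a difference of -0.30 (SE 0.071). Within numbers 1, 2 and 3 the difference was -0.41, -0.13 and -0.37, so the replicate 2 pair was the closest. Without the replicate 2 arrays it was -0.39. By absolute difference Nnt ranked 117 of 23410 clusters. The deposited table holds 1 value per cluster, so exons inside and outside the segment deleted in C57BL/6J were not separated.

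Alad encodes aminolevulinate dehydratase, the enzyme of haem synthesis that joins a pair of aminolevulinate molecules into porphobilinogen. Alad read 11.25, 11.15 and 11.11 on the knockout arrays and 11.40, 11.34 and 11.36 on the wild-type arrays, with no overlap. The means were 11.17 ± 0.069 for knockout and 11.37 ± 0.028 for wild type (SD, n = 3 each). The knockout signal was 0.872 of wild type (log2 difference -0.20, SE 0.060), and the difference was -0.15, -0.19 and -0.25 within numbers 1, 2 and 3. It was the most even of the 3 larger differences across the replicate numbers. Alad ranked 603 of 23410 by absolute difference.

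Wdfy1 encodes a protein with a FYVE domain and WD40 repeats that binds phosphatidylinositol 3-phosphate on early endosomes and is known as a helper of Toll-like receptor signalling. It read 9.83, 9.87 and 9.91 on the knockout arrays and 9.80, 9.78 and 9.76 on the wild-type arrays. The groups did not overlap, but the lowest knockout array was only 0.034 above the highest wild-type array. The means were 9.87 ± 0.039 for knockout and 9.78 ± 0.018 for wild type (SD, n = 3 each), a difference of 0.092 (SE 0.055). Its range over the 6 arrays, 0.15, was below the median of 0.24 over all clusters.

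Crb1, the Crumbs protein that anchors the adhesion belt between photoreceptors and Muller glia, read 9.63, 9.91 and 9.98 on the knockout arrays and 9.85, 9.82 and 9.64 on the wild-type arrays. The genotypes overlapped, with the lowest arrays of both nearly equal. The difference was 0.068 (SE 0.099), or -0.00080 without knockout replicate 3. Within numbers 1, 2 and 3 it was -0.22, 0.091 and 0.33, so its sign was not shared. An expression array does not read the rd8 base, and its presence in these animals was not analysed here.

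Cyfip2, a subunit of the WAVE complex that drives branched actin assembly, read 11.90, 11.91 and 11.73 on the knockout arrays and 11.77, 11.85 and 11.78 on the wild-type arrays. The genotypes overlapped, and the difference was 0.047 (SE 0.069). Ide, the insulin-degrading enzyme, a zinc peptidase that also cuts amyloid beta, read 10.68, 10.50 and 10.72 on the knockout arrays and 10.76, 10.57 and 10.88 on the wild-type arrays. The Ide difference was -0.10 (SE 0.093, or 0.048 with the replicate number as a block), with values from -0.19 to -0.032 when single arrays were left out. Within numbers 1, 2 and 3 it was -0.078, -0.071 and -0.16. In both genotypes the replicate 2 array had the lowest Ide signal and the replicate 3 array the highest.

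Glo1 encodes glyoxalase I, which with glutathione clears the reactive sugar product methylglyoxal. Its clusters carry the same transcript accessions, and the gene table also lists a Glo1 pseudogene. The clusters may thus share transcripts and were not counted as independent. Probe positions were not given, so whether each cluster lies at Glo1 or at the pseudogene was not tested. The brighter one read 11.46, 11.54 and 11.61 on the knockout arrays and 11.45, 11.52 and 11.49 on the wild-type arrays. The other read 11.24, 11.27 and 11.38 on the knockout arrays and 11.23, 11.29 and 11.25 on the wild-type arrays. The genotypes overlapped in both, with differences of 0.050 (SE 0.062) and 0.040 (SE 0.061). The gap between the clusters was between 0.22 and 0.27 on every array.

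**Figure D2:**
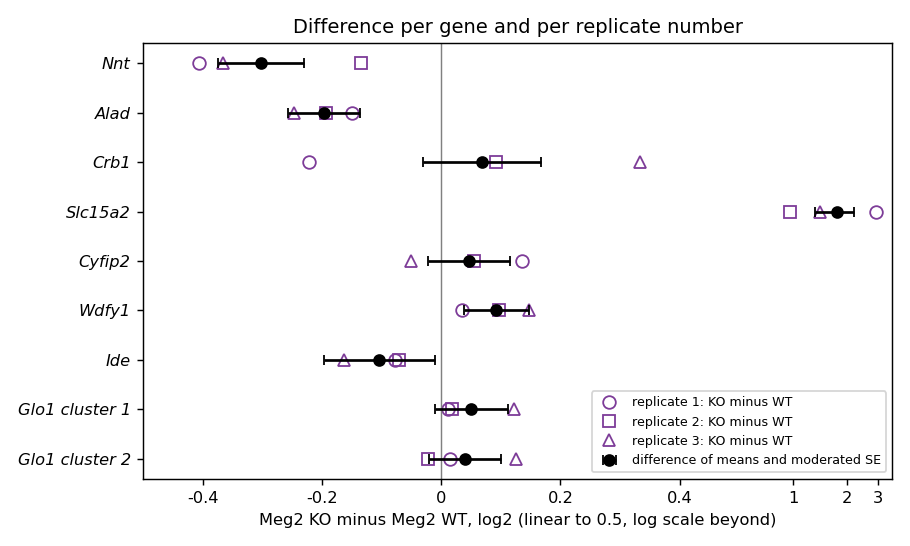
Knockout minus wild-type difference in log2 signal (horizontal axis, linear to 0.5 and on a log scale beyond) for the 9 clusters, with black points for the difference of means, bars for the moderated SE, and open symbols for the difference within each replicate number. All 3 replicate numbers lie on 1 side of 0 for Nnt, Alad, Slc15a2, Wdfy1, Ide and the brighter Glo1 cluster, the last by 0.011 and 0.017 for numbers 1 and 2. How often this holds over all clusters was not counted, and the genes were selected with this contrast known, so nothing is read from it.

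Over the 9 clusters, 6 lay above 0 and 3 below, with a median difference of 0.047, where the median over all tested clusters was 0.0012. The genotypes did not overlap in 4 of the 9, of which 2 lay higher and 2 lower in the knockout. Over all clusters the arrays did not overlap in 8.43%, 4.08% higher and 4.35% lower. Since the genes were selected with this contrast known, nothing is read from that comparison.

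Whether a gene fell into separate levels over the 6 arrays was described without the genotype labels. A cluster was counted at 2 levels where its range was at least 0.5, its widest gap between neighbouring arrays was more than 0.6 of the range, and at least 2 arrays stood on each side of the gap. None of the 9 clusters met this, and 19 of 23410 did (0.0812%). Slc15a2 was the 1 cluster of the 9 with a range of at least 0.5, which 4.57% of all clusters reached, but its gap of 1.83, or 0.565 of the range, set off wild-type replicate 1 alone. The remaining 5 Slc15a2 arrays lay at 8.34 and 8.53 in the wild type and from 9.42 to 9.75 in the knockout. The other 8 clusters had ranges under 0.5, from 0.15 for Wdfy1 to 0.45 for Nnt. In Nnt and Alad the widest gap, 0.309 and 0.347 of the range, stood between knockout arrays, and not between the genotypes.

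**Figure D3:**
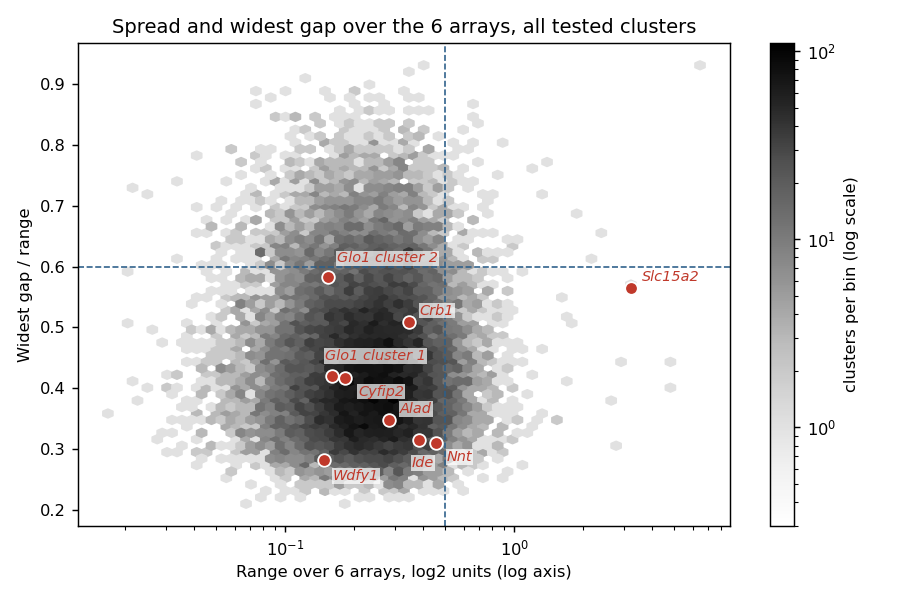
Range of each cluster over the 6 arrays in log2 units (horizontal log axis) against its widest gap as a share of that range (vertical axis), with all 23410 tested clusters in grey bins and the 9 clusters of the 8 genes in red. Dashed lines mark a range of 0.5 and a share of 0.6, and none of the red points lies past both.

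The replicate numbers also ordered part of the data. Over all clusters the deviations of same-numbered arrays from their genotype means were correlated, and in 32.1% of clusters all 3 numbers deviated to the same side in both genotypes. Among the 9 clusters this held for 2, Alad and Ide. In Ide the deviations were 0.050, -0.13 and 0.085 in the knockout, against 0.024, -0.17 and 0.14 in wild type for numbers 1, 2 and 3. In Slc15a2 they were -0.13, -0.060 and 0.19 in the knockout, against -1.28, 0.74 and 0.55 in wild type, so the low wild-type array had no counterpart of like size in the knockout array of its number.

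**Figure D4:**
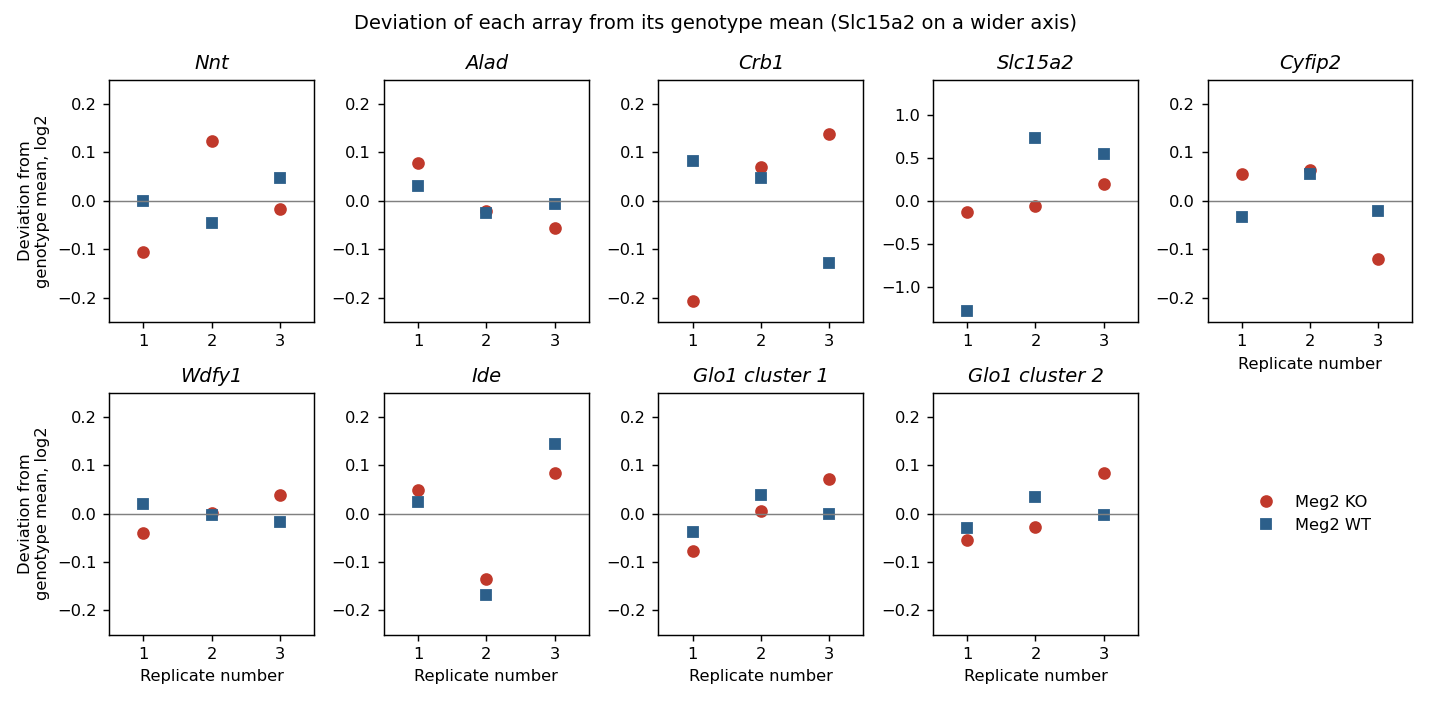
Deviation of each array from its genotype mean in log2 units (vertical axis, wider for Slc15a2) by replicate number (horizontal axis), Meg2 KO as red circles and Meg2 WT as blue squares. The 2 genotypes lie on the same side of 0 at each number in Ide and Alad, while in Slc15a2 only wild-type replicate 1 lies more than 1 unit from its mean.

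The genes beside each member on its chromosome were not used to select the members, so they could be tested. For each of the 8 genes, 5 measured genes on each side were taken in the order of assembly GRCm38.p6. Of these 80 neighbours, 0 passed an adjusted p of 0.05 in limma, and 2 (2.5%) had an unadjusted p under 0.05, where 3.43% of all clusters did. With the replicate number as a block, 0 passed adjustment and 6 had an unadjusted p under 0.05, while over all clusters 1 passed adjustment and 2063 (8.81%) had an unadjusted p under 0.05. The 6 were Tmem267 beside Nnt, Hdhd3 beside Alad, Ptprc beside Crb1, Stfa2 beside Slc15a2, Fam124b beside Wdfy1 and Cyp26a1 beside Ide. The median difference of the 80 was 0.0098, with a range from -0.21 to 0.21.

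On chromosome 16, the neighbours Ildr1 and Eaf2 differed by 0.064 (SE 0.071) and 0.033 (SE 0.070), and all 10 neighbours lay between -0.17 and 0.14. One of them, Stfa2, a stefin that inhibits cysteine proteases, had an unadjusted p under 0.05. It averaged 5.02 in the knockout, against 5.19 in wild type (limma, difference -0.17, SE 0.060, adjusted p = 0.9995). Around Nnt on chromosome 13 the neighbours lay between -0.18 and 0.15 and none had an unadjusted p under 0.05 without the block, while with it Tmem267, at -0.18, did. Paip1, next to Nnt, differed by 0.044 (SE 0.076). Around Wdfy1 on chromosome 1, Fam124b read 6.21, 6.16 and 6.07 in the knockout, against 6.06, 5.86 and 5.88 in the wild type (limma, difference 0.21, SE 0.072, adjusted p = 0.9995).

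Hdhd3, a haloacid dehalogenase-like hydrolase gene next to Alad on chromosome 4, is known to lie with Alad in the duplicated segment of some inbred strains. It was chosen for naming after its values were seen. Hdhd3 read 8.05, 7.73 and 8.19 on the knockout arrays and 8.11, 8.14 and 8.36 on the wild-type arrays, which overlapped, and differed by -0.21 (SE 0.12; limma, adjusted p = 0.9995, and 0.530 with the block). Pole3, on the other side of Alad, differed by -0.0035 (SE 0.090). Copy number of this segment in these animals was not tested. Fgfbp3, a fibroblast growth factor binding protein gene that lies in the variable segment with Ide and was likewise chosen after its values were seen, read 8.52, 8.60 and 8.45 on the knockout arrays and 8.54, 8.63 and 8.33 on the wild-type arrays. Its difference was 0.020 (SE 0.085). Neighbours of Alad, Crb1, Cyfip2, Ide and Glo1 had no unadjusted p under 0.05 without the block.

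**Figure D5:**
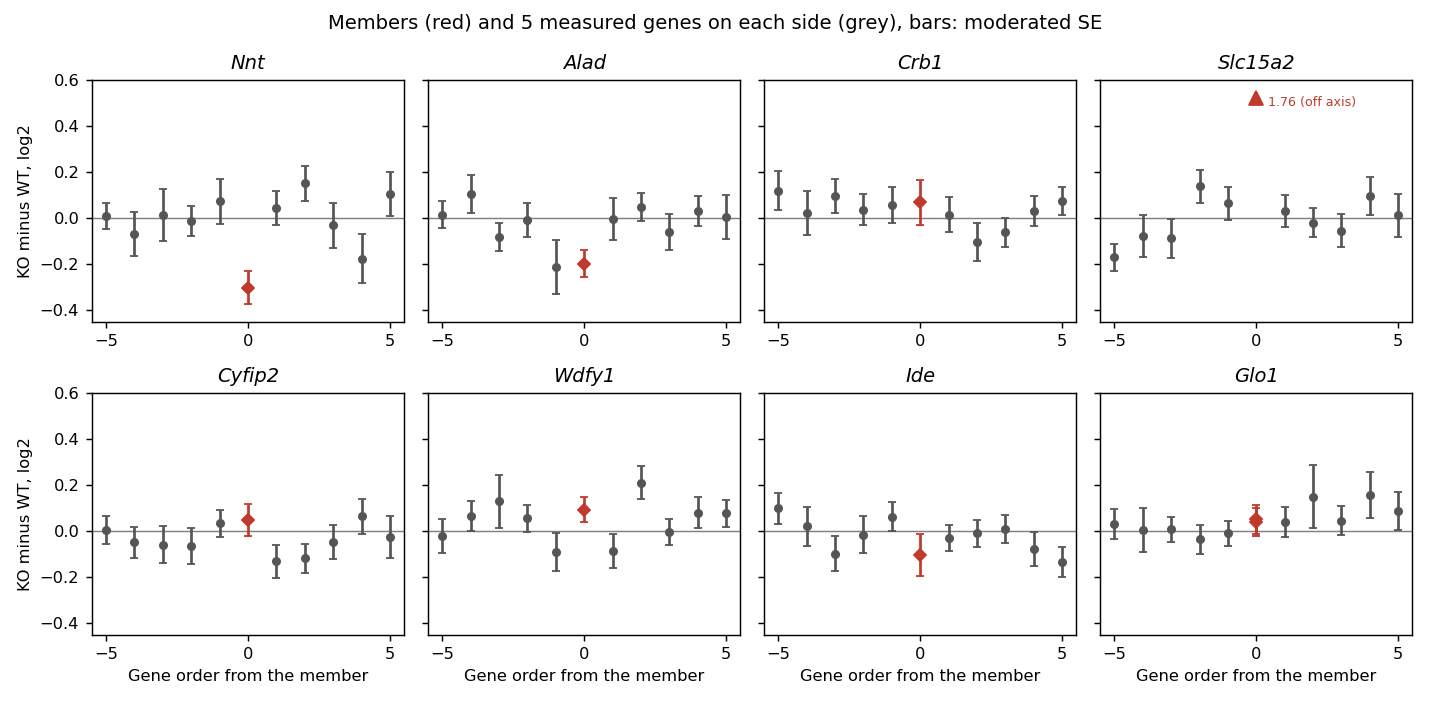
Knockout minus wild-type difference in log2 signal (vertical axis) for each of the 8 genes (red) and its 5 measured neighbours on each side (grey) by gene order (horizontal axis), with bars for the moderated SE. The Slc15a2 difference of 1.76 lies off the axis, while its neighbours lie between -0.17 and 0.14.

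Partner genes of the members were taken from 9 lists. The lists were written with earlier results of these data known and are described by counts and medians. In none of them did a gene pass an adjusted p of 0.05 in limma, where each listed gene had an adjusted p of 0.9995. For Slc15a2, 5 of 8 measured peptide transporter and peptidase genes lay above 0, with a median difference of 0.034. Anpep, aminopeptidase N, averaged 6.52 in the knockout, against 6.33 in wild type, a difference of 0.19 (SE 0.071). Cndp2, a dipeptidase of the cytosol, averaged 10.08 in the knockout, against 10.22 in wild type, a difference of -0.15 (SE 0.058). These were the 2 genes of the list with an unadjusted p under 0.05, in opposite directions. The intestinal paralogue Slc15a1 differed by -0.10 (SE 0.093) and Slc15a4 by 0.058 (SE 0.073).

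For Nnt, 9 of 12 measured genes of mitochondrial NADPH supply and peroxide removal lay below 0, with a median of -0.030 and no unadjusted p under 0.05. The peroxiredoxin gene Prdx3 differed by -0.11 (SE 0.068) and Idh2, the mitochondrial isocitrate dehydrogenase that makes NADPH, by -0.083 (SE 0.055). For Alad, 5 of 7 measured haem synthesis genes lay above 0, with a median of 0.056. The exceptions were Ppox, protoporphyrinogen oxidase, at -0.13 (SE 0.064) and Uros, uroporphyrinogen III synthase, at -0.13 (SE 0.080).

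For Crb1, 9 of 14 genes of the Crumbs polarity complex lay below 0, with a median of -0.014. The adaptor gene Lin7c differed by 0.11 (SE 0.054), the scaffold gene Mpp3 by -0.082 (SE 0.061) and the paralogue Crb2 by 0.0063 (SE 0.067). For Cyfip2, 5 of 10 measured genes of the WAVE complex lay above 0, with a median of 0.0045, the haematopoietic subunit gene Nckap1l at 0.15 (SE 0.074) and Abi3 at -0.074 (SE 0.065). For Wdfy1, 4 of 7 measured genes of its family and of the Toll-like receptor pathway lay above 0, with a median of 0.010. The paralogues Wdfy2 and Wdfy3 differed by -0.13 (SE 0.060) and -0.098 (SE 0.078).

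For Ide, 6 of 8 peptidase genes lay above 0, with a median of 0.056. Thop1, thimet oligopeptidase, differed by -0.16 (SE 0.070) with an unadjusted p under 0.05, and the endothelin-converting enzyme gene Ece2 by -0.13 (SE 0.070). For Glo1, 5 of 8 measured glyoxalase and glutathione genes lay below 0, with a median of -0.0095, Glod5 at 0.12 (SE 0.075) and the lactate dehydrogenase D gene Ldhd at 0.049 (SE 0.056). Of 10 further measured genes reported to vary between C57BL/6 substrains, 4 lay above 0 and 6 below, with a median of -0.055 and no unadjusted p under 0.05. The largest of these belonged to Gabra2, the GABA receptor subunit gene with reduced expression in C57BL/6J, at -0.23 (SE 0.15). Gabra2 read 9.47, 9.91 and 10.09 on the knockout arrays and 9.92, 10.03 and 10.21 on the wild-type arrays, which overlapped. The multimerin gene Mmrn1, deleted in a C57BL/6J-derived colony, differed by -0.11 (SE 0.068).

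Markers of the cell types that can express the members were set beside them. Muller glia and astrocyte markers, which bear on Slc15a2 and Crb1, lay above 0 in 12 of 15 genes, with a list mean between 10.27 and 10.33 on the knockout arrays and between 10.21 and 10.26 on the wild-type arrays. Aqp4, S100b and Gfap in this list were dim, at 6.73, 6.93 and 7.27 in the knockout, where the median over tested clusters was 8.51. Which cells carried the brighter genes at this age, glia or progenitors, was not tested, so the list mean is not a measure of mature glia. Within this list the differences lay between -0.18 and 0.22, against 1.76 for Slc15a2, and Fabp7, a fatty acid binding protein of radial and Muller glia, had an unadjusted p under 0.05 (0.15, SE 0.061). The glial list means of the genotypes did not overlap, and their part in the Slc15a2 difference was not tested. On wild-type replicates 1, 2 and 3 the glial list mean was 10.26, 10.24 and 10.21. Its relation to Slc15a2 over these arrays was not tested. Erythroid markers, which bear on Alad, lay above 0 in 4 of 10 measured genes, with a list mean between 7.30 and 7.44 on knockout and 7.32 to 7.46 on wild-type arrays. Rhag, at -0.17 (SE 0.055), had an unadjusted p under 0.05 and was dim, averaging 5.11 in the knockout, against 5.28 in wild type. Photoreceptor markers lay above 0 in 5 of 9 measured genes, with a list mean between 9.29 and 9.61 on knockout and 9.38 to 9.59 on wild-type arrays. In whole tissue, fewer cells of a type and less RNA per cell cannot be told apart.

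Single markers of other cells differed by more. Endothelial and pericyte markers had a list mean between 7.96 and 8.28 on knockout and 7.93 to 8.03 on wild-type arrays, with 10 of 12 above 0. Of these Cdh5, Emcn and Rgs5 had an unadjusted p under 0.05, at 0.54 (SE 0.14), 0.50 (SE 0.14) and 0.50 (SE 0.11). The 2 markers below 0 were Kdr at -0.070 (SE 0.083) and Pdgfrb at -0.016 (SE 0.087). Cldn5 and Cspg4 differed by 0.077 (SE 0.11) and 0.043 (SE 0.058). Lens markers lay between 7.63 and 7.87 on knockout and 7.56 to 7.67 on wild-type arrays, with 8 of 10 measured above 0. The largest lens differences, 0.54 for the crystallin gene Cryba1 and 0.53 for Cryaa, rested on knockout replicate 3 and were 0.17 and 0.21 without it. Cryaa was the lens marker with an unadjusted p under 0.05. Immune cell markers lay between 7.65 and 7.87 on knockout and 7.63 to 7.72 on wild-type arrays, with 8 of 12 above 0. The complement genes C1qa, C1qb and C1qc had an unadjusted p under 0.05, at 0.21, 0.47 and 0.21, and the C1qc arrays overlapped. Below 0 lay P2ry12 at -0.13, Cd68 at -0.049, Itgam at -0.045 and Aif1 at -0.0021, while Cx3cr1 differed by 0.045. Pigment epithelium markers lay between 7.43 and 7.68 on knockout and 7.44 to 7.53 on wild-type arrays, with 7 of 11 above 0. Tyr, at 0.19, had an unadjusted p under 0.05 and was dim, averaging 5.95 in the knockout, against 5.75 in wild type. The 4 below 0 were Rlbp1 at -0.18, Mitf at -0.083, Best1 at -0.041 and Mlana at -0.0049. No marker passed an adjusted p of 0.05 in limma, and over all clusters 3.43% had an unadjusted p under 0.05. The part of these cells in the members' differences was not tested.

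The clusters most like each member over the 6 arrays were sought among single-gene clusters with at least 0.5 of its range. For Slc15a2 just 11 clusters had that range, and the closest were Hif3a (Pearson r = 0.66) and the clock gene Per1 (r = 0.63). For the other members 11806 to 21361 clusters had it, so the r values of Slc15a2 cannot be set beside theirs. Hif3a read 9.36, 9.46 and 10.75 in the knockout, against 8.88, 8.91 and 9.10 in wild type. For Nnt the closest were Dpcd (r = 0.988) and the mitotic kinesin gene Kif23 (r = 0.984), and for Ide Tsen15 (r = 0.997) and Aarsd1 (r = 0.994). For Alad they were Cdh9 (r = 0.989) and Gm14636 (r = 0.985), for Crb1 Prob1 (r = 0.988) and Zfp386 (r = 0.986), for Cyfip2 Krtap7-1 (r = 0.993) and Trp53i11 (r = 0.986), and for Wdfy1 Acd (r = 0.987) and Plekhb1 (r = 0.987). For the brighter Glo1 cluster they were Bpi (r = 0.994) and Zfp398 (r = 0.992), and for the other Parvg (r = 0.991) and Zfp873 (r = 0.989). With 6 arrays, a search of this many clusters turned up some high values. For Nnt 17 of 11806 clusters reached r over 0.95, and for Ide 76 of 14624.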

How the data were processed

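RNA from retinae of 3 Meg2 knockout and 3 wild-type mice was hybridised to Affymetrix Mouse Gene 1.0 ST arrays from 300 ng of total RNA, per the labels' protocols. The deposited table holds 1 log2 signal per cluster and array, made with Affymetrix Expression Console and RMA, per the submitters' processing notes, which also list Transcriptome Analysis Console. No versions and no test are given there. RMA gives the probe signals of all arrays 1 distribution before they are summarised to clusters, which would hide a change common to most genes.

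Of 35557 rows, 21789 named 1 gene, 1621 several and 12147 none in the platform annotation. Entrez identifiers of 21698 single-gene clusters matched the GRCm38.p6 gene table, which changed 0 symbols and was used for names and gene order. The 23410 named clusters were fitted with limma 3.58.1 (lmFit, eBayes) in R 4.3.3, with Benjamini-Hochberg adjustment and a threshold of 0.05, and the fit was tested on simulated data. A difference is knockout minus wild type. With 3 arrays a genotype, exact permutation gives no p under 0.1 and was not run. Tables and figures used Python 3.11.15, pandas 2.3.3 and matplotlib 3.10.9.

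The members, lists and tests were chosen with earlier results of these data known. Named genes were the 8 members, Ptpn9, the 2 genes of lowest p in each partner list, neighbours with an unadjusted p under 0.05 and the 2 clusters most like each member. Genes named outside this rule, chosen after their values were seen, were Slc15a1, Slc15a4, Crb2, Fgfbp3, Hdhd3, single cell type markers, neighbours called with the block, Xist, Y-linked genes and the nearest neighbours. Each list gene or neighbour stood as its brightest cluster. Deviations of same-numbered arrays correlated at 0.476, 0.485 and 0.455, above the 0.1 taken as pairing. The labels give the numbers without their meaning. They also carry a running code that alternates between knockout and wild type, so same-numbered arrays have adjacent codes. What this code marks is not stated. Xist and Y-linked signals followed the replicate number in both genotypes. The main errors and counts nevertheless come from the fit without the replicate number, and the fit with it as a block is an alternative. Litters are not stated, so the errors measure only the spread between these samples. Alternatives were centring, loess, variance trend, robust variance, array weights, signal filters, all rows, the replicate block, each array left out and, added after seeing the data, replicate 2 left out of both genotypes, and lens markers without knockout replicate 3.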

Additional observations from a re-analysis of the deposited data

How the results depend on the processing

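The 9 differences between genotypes kept their direction under 15 alternatives each, except that of Crb1 and of the dimmer Glo1 cluster, which were -0.00080 and -0.0018 without knockout replicate 3. With single arrays left out, differences ranged from -0.36 to -0.25 for Nnt, from -0.24 to -0.17 for Alad, from 1.12 to 2.13 for Slc15a2, from 0.074 to 0.11 for Wdfy1, from 0.015 to 0.11 for Cyfip2, from -0.19 to -0.032 for Ide, from -0.00080 to 0.17 for Crb1, and from 0.015 to 0.089 and from -0.0018 to 0.067 for the brighter and dimmer Glo1 clusters. Over all clusters the count at an unadjusted p under 0.05, 803 in limma, was 431 of 11705 clusters above the median signal (3.68%) and 1331 of 35557 with every row of the table (3.74%), against 3.43% of 23410, so these counts follow the number tested. It was 2063 with the replicate block, and between 636 and 1298 with single arrays left out, where leaving out knockout replicate 1 gave 1298 and knockout replicate 2 gave 1221. The count at an adjusted p under 0.05 was 0 in each of these fits except the replicate block, where it was 1. The count of neighbours at an unadjusted p under 0.05, 2 of 80, was 1 above the median signal, 1 without the replicate 2 arrays, 6 with the replicate block, 9 of 160 with 10 neighbours on each side, and between 1 and 4 with single arrays left out: 4 without knockout replicate 1 or 2, and 1 without any single wild-type array. Over all clusters the share was 8.81% with the block and 3.43% in the main fit, which also gave the 9 of 160. The 2 fits with 4 neighbours were those with 1298 and 1221 of 23410 clusters. The 19 clusters at 2 levels were 63 with a gap over 0.5 of the range, 8 with a gap over 0.7, 171 with a range of at least 0.3 and 1 with a range of at least 1, and under each of these 0 of the 9 member clusters were among them. The cause of the other shifts was not tested. The replicate block left the 9 differences as they were and gave SEs of 0.33 for Slc15a2, 0.065 for Nnt, 0.047 for Alad and 0.048 for Ide. The 3 arrays per genotype limit all of these values.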
